A study of Mus musculus with 14 samples.

Results

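The genes described here are 36 genes of the cell cycle, a listed set of which 17 act in S phase and 19 in G2 and mitosis. Each was found by its symbol among the 27099 gene rows of a count table from bone marrow stromal cells (BMSCs), and all 36 were among the 18152 genes that passed the filter on low counts. The list names the genes by their known roles, and was chosen with earlier results of these data known. RNA was sequenced from mouse BMSCs that carry a green fluorescent protein under regulatory elements of nestin (Nes-GFP) and that were sorted as negative for DAPI, CD31, CD45 and the erythroid antigen Ter119. The cells were divided into Nes-GFP high and Nes-GFP low populations, and came either from leukemic or from normal mice. The leukemic animals were primary iMLL-AF9 mice, which carry rtTA in the ROSA26 locus and the human MLL-AF9 fusion under a tetracycline-response element, and which received doxycycline until high white blood cell counts showed acute myeloid leukemia (AML). The mice were adults of either sex, matched for age and sex. Every library shares the Nes-GFP reporter, and genotype, doxycycline and AML cannot be told apart in these groups. There were 2 AML and 2 normal Nes-GFP high libraries, and 4 AML and 6 normal Nes-GFP low libraries, called here by status, population and number (AML low 3). A library came from 1 mouse or from a pool of 2 mice, but which of the libraries are pools is not given in the sources used here. Nor is it given whether a high and a low library came from the same mouse, so p-values measure the spread between these samples.

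A dividing cell licenses its replication origins in G1 by loading the Mcm helicase, fires them in S phase under cyclin E and A kinases, and then enters mitosis under cyclin B and Cdk1. Genes of the S phase are switched on largely by E2F factors, and those of G2 and mitosis by the Myb-MuvB complex and Foxm1. In resting cells both groups are held down by the DREAM complex. Marrow stromal cells of adult mice, and nestin-expressing ones in particular, are known to divide rarely, while the blood progenitors around them divide often.

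The libraries held 5615941 to 11436652 counted reads. Levels are given as CPM, the reads of a gene scaled to the library total with a TMM factor. The transcript of Nes itself was at 26.7 to 36.03 CPM in 3 of the 4 Nes-GFP high libraries and at 0 to 5.70 CPM in the 10 low ones, but at 2.27 CPM in the library labelled normal high 1. Markers of marrow stroma (10 genes, among them Cxcl12 and Lepr) summed to between 699.8 CPM in AML low 3 and 65010 CPM in normal low 2, and Cxcl12 was read in all 14 libraries. Although the sort was for CD45- cells, Ptprc, which encodes CD45, reached 447 to 483 CPM in AML low 3, normal low 3 and normal low 4, against 3.95 to 8.04 CPM in normal low 1, 2, 5 and 6. It was at 81.8, 184 and 178 CPM in AML low 1, 2 and 4 and at 109 CPM in the library labelled normal high 1, so that all 4 AML low libraries carried it. Neutrophil and monocyte markers (12 genes) summed to between 721.9 and 102100 CPM, and erythroid markers (11 genes), although the sort was also for Ter119- cells, to between 10.8 and 3410 CPM. Endothelial markers stayed between 0.743 and 51.3 CPM. Cdh5, Kdr, Ahsp, Rag1 and Ppbp were not analysed here.

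The summed level of the S phase genes spanned an 11.1-fold range over the 14 libraries, and that of the G2 and mitosis genes a 27.8-fold range. The 17 S phase genes together were at 583 and 349 CPM in the AML high libraries. In normal high libraries 1 and 2 they were at 902 and 449.8 CPM. The AML low libraries held 1023, 759.9, 1675 and 2977 CPM. In the normal low libraries the sum was lowest at 472 CPM, had a median of 1942 CPM and reached 3892 CPM. The 2 AML high libraries lay below all 4 AML low libraries, while normal high 1 fell within the range of the normal low libraries and normal high 2 lay just below the lowest of them. In bulk RNA of this kind, fewer dividing cells and less RNA of these genes per cell cannot be told apart.

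The 19 G2 and mitosis genes summed to 437 and 232 CPM in the AML high libraries and to 613 and 141 CPM in the normal high ones. In AML low 1 to 4 they reached 690.3, 434.8, 2294 and 1643 CPM. The normal low libraries ran from 103 CPM through a median of 1559 CPM to 2859 CPM. The group means were 335 ± 145 CPM (SD, n = 2) in AML high, 1266 ± 861 CPM (SD, n = 4) in AML low, 377 ± 334 CPM (SD, n = 2) in normal high and 1405 ± 1050 CPM (SD, n = 6) in normal low. For the S phase genes they were 466 ± 165, 1609 ± 990.0, 676 ± 320 and 1996 ± 1413 CPM in the same order. Within the low groups the spread between libraries was therefore of the size of the difference between populations.

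**Figure D1:**
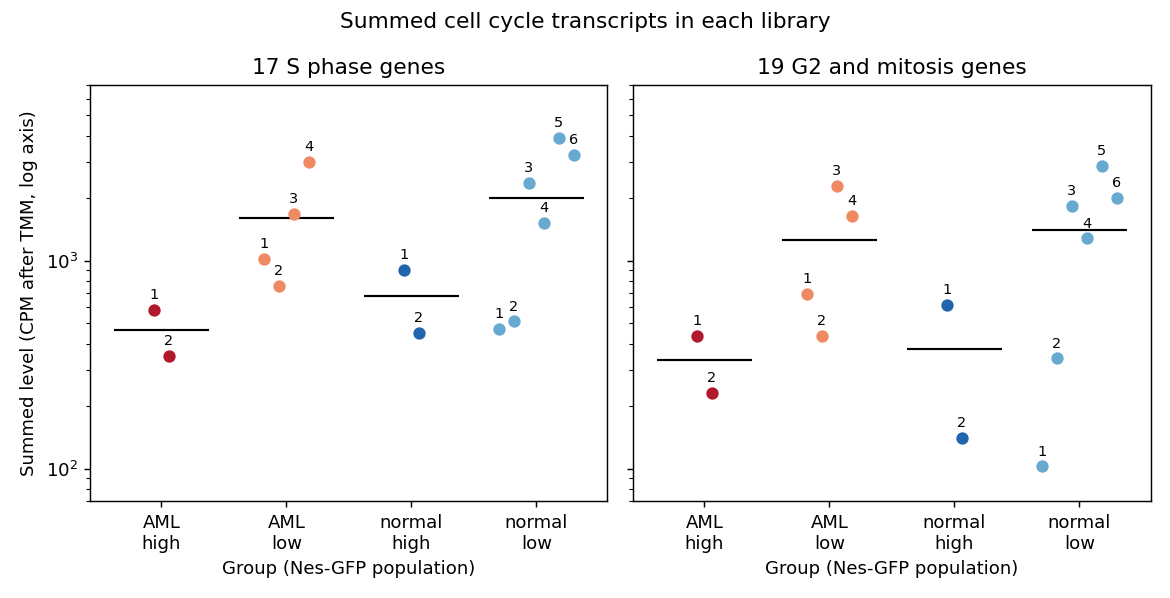
Summed level of the 17 S phase genes (left) and the 19 G2 and mitosis genes (right) in each library, in CPM after TMM on a log axis. Points are libraries with their number, and bars are group means. Normal low 1 and 2 lie at 103 and 339.7 CPM for the G2 and mitosis genes, near or below the Nes-GFP high libraries, while normal low 5 reaches 2859 CPM.

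The same few libraries were high for most of the genes. Normal low 5 held the highest level of 14 of the 36 genes, normal low 6 of 9, AML low 4 of 6, AML low 3 of 5 and normal low 3 of 2. No gene was highest in a Nes-GFP high library or in normal low 1, 2 or 4 or AML low 1 or 2. Of the 36 genes, 9 and 10 were below 1 CPM in the AML high libraries and 8 and 4 in normal high 1 and 2. In the low libraries this number lay between 0 and 4. As shares these were 25.0%, 27.8%, 22.2% and 11.1% of the set in the 4 high libraries, below the 33.6%, 32.5%, 40.4% and 33.7% of all tested genes that were under 1 CPM there. In the low libraries 18.2% to 30.6% of all tested genes were under 1 CPM. At least 1 read was found for 14842 genes in the library labelled normal high 1 and for 18177 to 18548 in the other high ones. The low libraries had such reads for 18786 to 20197 genes. Ccne1, Cdt1, Aurkb and Bub1 had no read in the library labelled normal high 1, where 3 reads would amount to 0.378 CPM.

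The ratio of the G2 and mitosis sum to the S phase sum was close to its median of 0.670 in most libraries. It was 0.750 and 0.664 in the AML high libraries and 0.679 and 0.313 in the normal high ones. AML low 3 stood highest at 1.37, the one library with more G2 and mitosis than S phase transcripts. Normal low 1 stood lowest at 0.218.

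Blood cell markers differed between the same libraries. Normal low 5, normal low 6 and AML low 4, which had the highest sums of the 36 genes, had erythroid marker sums of 3410, 3370 and 2670 CPM and blood progenitor marker sums of 622, 400.2 and 515 CPM. AML low 3 and normal low 3 had neutrophil and monocyte marker sums of 94640 and 102100 CPM. Normal low 1 and 2, with the smallest cell cycle sums of the low libraries, had 63960 and 65010 CPM of stromal markers. Their neutrophil and monocyte markers summed to 1563 and 722 CPM, and their erythroid markers to 684 and 404 CPM. Lymphoid markers summed to 224 and 1472 CPM in these 2, against 2.93 to 1473 CPM over the 14 libraries. The library labelled normal high 1 combined 59940 CPM of stromal markers with 34130 CPM of neutrophil and monocyte and 2950 CPM of erythroid markers. How much such cells contributed to the levels of the cell cycle genes was not tested. A fit with the neutrophil and monocyte and the erythroid marker sums as covariates, an alternative chosen after seeing the data, is given with the comparisons.

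**Figure D2:**
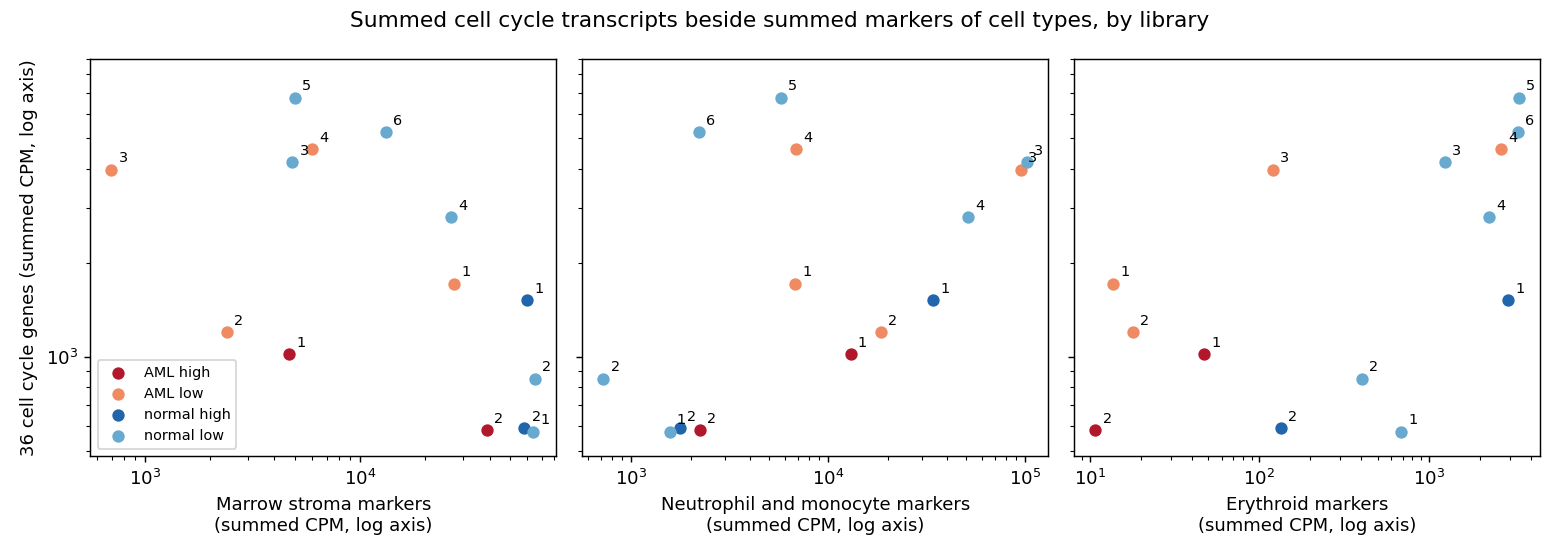
Summed level of the 36 cell cycle genes against the summed level of stromal (left), neutrophil and monocyte (middle) and erythroid (right) markers in each of the 14 libraries, in CPM after TMM on log axes, with replicate numbers beside the points. The 4 libraries with the most stromal markers are normal high 1 and 2 and normal low 1 and 2, at 57970 to 65010 CPM. Of these 4, all but normal high 1 have cell cycle sums among the lower ones, and normal high 1 lies near the middle. AML high 1 and AML low 2, at 4698 and 2406 CPM of stromal markers, also have lower cell cycle sums than normal high 1. Normal low 5 and 6 lie at the right of the erythroid plot.

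The genes varied together. Over the 14 libraries the median Spearman correlation between pairs of S phase genes was 0.70, between pairs of G2 and mitosis genes 0.67, and between the 2 sets 0.67, against 0.01 for pairs of all other tested genes. All 136, 171 and 323 pairs had a correlation above 0. In the 10 Nes-GFP low libraries alone the medians were 0.75, 0.72 and 0.70, with 7 of the 323 pairs between the sets, and 1 pair within each set, at or below 0. The least alike gene there was Kif11, a mitotic kinesin, with a median correlation of 0.27 to the other members, and the most alike were Mcm5 and Ccna2 at 0.83. These values describe 14 or 10 libraries that differ in cell makeup and depth, which all genes share.

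Promoter sequences are shown for 4 genes that vary together in this way, to set the elements of the S phase class beside those of the G2 and mitosis class. Of the 36 genes, 30 had a window in RefSeq (GRCm38.p6), from 250 bases before to 50 bases after the start of the gene. Searched on both strands, the cell cycle homology region (CHR), searched as TTTGAA and as its variant TTCGAA, was found in 12 of 16 windows of G2 and mitosis genes (75.0%), in 3 of 14 of S phase genes (21.4%) and in 19.4% of the 27025 windows of all genes. An E2F site, searched as TTGGCGC with the variants TTCCCGC and then TTCGCGC, was found in 57.1%, 18.8% and 8.21% for S phase, G2 and mitosis, and all genes. The CCAAT box was found in 71.4%, 87.5% and 37.9%. A match of letters is a description and not a bound site. The 170 bases before the start are printed 5′ to 3′ on the strand of the gene, with these motifs in capitals in either direction, and neighbouring capitals can belong to overlapping motifs, as in the paired E2F letters of Mcm5. Mcm5 (chr8:75109339-75109508, plus strand) and Mcm2 (chr6:88898781-88898950, minus strand) encode subunits of the replicative helicase. Cdk1 (chr10:69352913-69353082, minus strand) encodes the mitotic kinase and Top2a (chr11:99024190-99024359, minus strand) the topoisomerase that untangles chromosomes.
Mcm5: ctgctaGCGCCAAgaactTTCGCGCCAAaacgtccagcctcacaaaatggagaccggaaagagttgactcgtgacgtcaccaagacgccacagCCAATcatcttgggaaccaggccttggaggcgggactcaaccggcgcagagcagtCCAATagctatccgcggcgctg
Mcm2: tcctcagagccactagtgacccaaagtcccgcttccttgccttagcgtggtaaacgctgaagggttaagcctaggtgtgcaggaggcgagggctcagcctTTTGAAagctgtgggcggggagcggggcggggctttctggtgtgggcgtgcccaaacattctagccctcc
Cdk1: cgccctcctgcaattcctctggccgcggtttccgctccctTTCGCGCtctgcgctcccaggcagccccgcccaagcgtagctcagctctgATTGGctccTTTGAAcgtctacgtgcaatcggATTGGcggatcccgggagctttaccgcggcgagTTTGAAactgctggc
Top2a: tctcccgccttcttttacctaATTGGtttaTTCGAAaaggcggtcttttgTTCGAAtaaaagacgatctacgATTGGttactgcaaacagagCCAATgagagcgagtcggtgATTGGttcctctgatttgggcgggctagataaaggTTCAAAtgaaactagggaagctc

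In Top2a and Cdk1 CHR and CCAAT letters occur several times, with a CHR near the start. In Mcm5 the E2F letters stand far from the start and no CHR was found in the window, whereas Mcm2 held a CHR and no E2F match. At the level of transcripts Mcm5 and Mcm2 nevertheless varied alike, with the lowest values of both in the AML high libraries.

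The levels of the genes were compared with each other per kilobase of exon. In the Nes-GFP low libraries the highest median was that of Ccnb2, a B-type cyclin, at 91.4 CPM per kilobase, followed by Rrm2, the small subunit of ribonucleotide reductase, at 68.6 CPM per kilobase. The lowest was that of Cenpf, a kinetochore protein, at 1.79 CPM per kilobase, next to Cenpe at 2.45. In the Nes-GFP high libraries Pcna (33.8), Mcm7 (28.2) and Cdc20 (26.3) had the highest medians and Bub1 the lowest (0.026 CPM per kilobase). Neighbours in this order did not differ beyond their spread, since the highest low library exceeded the lowest by 3.88-fold for Pcna and by up to 396-fold for Cdc6. No such ratio is given for Plk1, Bub1 and Cenpe, whose lowest value was at or under 3 reads. Exon bases are shared with an opposite-strand gene for Ccne2 (609 bases with Ints8), Ccna2 (510 with Exosc9), Mcm7 (321 with Ap4m1), Cdc45 (209 with Ufd1), Nusap1 (172 with Oip5), Plk1 (156 with Gm44985), Cdc20 (53 with Elovl1) and Cdk2 (34 with Pmel), and whether reads were counted by strand is not given in the sources used here. Pcna, Tyms, Ccnb1 and Ccnb2 have named pseudogenes, with which reads may be shared.

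The comparison of Nes-GFP high with Nes-GFP low cells asks whether the population with the strongest reporter differs in its cell cycle transcripts, and was fitted with equal weight for AML and normal mice. In this fit all 36 genes had a log2 fold change below 0, from -0.30 for Cenpf to -5.73 for Bub1, while 61.4% of all tested genes did. The median was -2.09 for the S phase genes and -2.87 for the G2 and mitosis genes, beside -0.31 over all tested genes. By edgeR's quasi-likelihood test with Benjamini-Hochberg adjustment over all tested genes, 0 of the 36 genes and 0 of the 18152 genes passed an adjusted p of 0.05 (0.00%). At an unadjusted p under 0.05, 17 of the 36 genes (47.2%) were lower in the high population, beside 13.7% of all tested genes, and none was higher (2.69% of all tested genes). DESeq2 called 17 of the genes lower at an adjusted p under 0.05 (11.0% of the genes it adjusted) and limma voom 0. The number below 0 stayed at 35 or 36 when any 1 library was left out. The S phase median moved to -3.45 without AML high 1 and to -3.28 without the library labelled normal high 1. Without normal high 2, edgeR called 193 genes in this comparison, among them 1 of the set, Rrm1 (log2 fold change -5.76, adjusted p = 0.0397). With the 2 blood marker sums as covariates, 33 of the 36 genes were below 0, 13 were lower at an unadjusted p under 0.05, and the medians were -1.95 and -2.16.

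Tpx2 (chr2:152847964-152895321, plus strand), a spindle assembly factor that activates Aurora A, was the one gene for which all 4 high libraries lay below all 10 low libraries, a pattern held by 0.672% of all tested genes. It was at 1.24 and 0.314 CPM in the AML high libraries and at 0.757 and 0.567 CPM in the normal high ones. In the AML low libraries it was at 24.3, 21.1, 89.3 and 2.61 CPM. In the normal low libraries it was lowest at 1.29 CPM, had a median of 39.9 CPM and reached 57.4 CPM. Its log2 fold change between high and low was -5.59 (SE 1.22), with an adjusted p of 0.0997 by edgeR's quasi-likelihood test, and between 6.39e-08 and 0.489 over the alternatives. Tpx2 thus missed the threshold, and the highest high library, at 1.24 CPM, lay just below the lowest low one.

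Mcm2 (chr6:88883474-88898780, minus strand), a subunit of the helicase that opens the origins, was at 1.49 and 1.88 CPM in the AML high libraries. In normal high 1 and 2 it was at 87.5 and 4.25 CPM. AML low libraries held 61.2, 53.6, 67.9 and 211 CPM, and the normal low libraries from 26.7 through a median of 132 to 271 CPM. The lowest of the low libraries was above 3 of the 4 high ones, and the exception was the library labelled normal high 1. The log2 fold change of Mcm2 between high and low was -3.75 (SE 0.917, adjusted p = 0.125 by edgeR).

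Mcm5 (chr8:75109569-75128439, plus strand), from the same helicase, showed the same arrangement. It was at 1.73 and 1.78 CPM in the AML high libraries and at 101 and 5.82 CPM in the normal high ones. AML low 1 to 4 held 92.2, 40.8, 207 and 230.1 CPM, and the normal low libraries ran from 24.6 through 189 to 378 CPM. Its log2 fold change was -4.06 (SE 1.01, adjusted p = 0.131 by edgeR).

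The other licensing genes overlapped between the populations, except that Mcm4 did so only through AML low 4. Mcm3 was at 1.99 to 49.1 CPM in the high and 4.50 to 338 CPM in the low libraries, Mcm4 at 4.92 to 36.8 against 24.8 to 206 CPM, and Mcm6 at 2.09 to 112 against 26.6 to 349 CPM. Mcm7 had a range of 67.8 to 195 CPM in the high and 45.7 to 544 CPM in the low libraries. Cdc6 and Cdt1 load the helicase onto origins. Cdc6 was at 0.209 to 76.4 CPM in the high libraries and 0.4 to 158 CPM in the low ones, and Cdt1 at 0 to 23.4 against 1.82 to 131 CPM. Gmnn, which encodes the Cdt1 inhibitor geminin, was at 2.55 to 32.0 against 1.5 to 201 CPM.

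Origin firing and DNA synthesis genes followed. Ccne1 and Ccne2, the E-type cyclins, were at 0 to 63.1 and 0.105 to 23.8 CPM in the high libraries, and at 1.39 to 204 and 0.473 to 35.4 CPM in the low ones. Cdk2, the kinase they bind, was at 9.36 to 41.9 against 12.1 to 138 CPM, and Cdc45, a cofactor of the helicase, at 0.523 to 41.2 against 1.29 to 124 CPM. Pcna, the sliding clamp of the replication fork, had the smallest ratio of highest to lowest library among the 36 genes, at 48.1 to 125 CPM in the high and 65.2 to 253 CPM in the low libraries. The nucleotide synthesis genes Rrm1, Rrm2 and Tyms lay at 0.883 to 88.8, 7.66 to 92.9 and 20.4 to 74.5 CPM in the high libraries. In the low libraries the same genes lay at 55.3 to 510, 13.9 to 417 and 7.60 to 183 CPM. Rrm1 and Ccne1 were below every low library in 3 of the 4 high libraries, and normal high 2 was the exception for both. For Ccne1 the margin was narrow, with AML high 1 at 0.991 CPM and the lowest low library at 1.39 CPM. The other genes of this group overlapped more widely.

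Among the mitotic kinases, Aurka, which acts at spindle poles, was at 0.619, 0.732, 0.504 and 2.41 CPM in the 4 high libraries. It reached 49.8, 0.4, 82.0 and 9.13 CPM in AML low 1 to 4, and ran from 0.662 through a median of 43.8 to 117 CPM in normal low libraries. Aurkb, which corrects kinetochore attachment, was at 32.0, 0.942, 0 and 1.42 CPM in the high libraries, and between 1.39 and 155 CPM in the low ones. Plk1, the polo kinase of mitotic entry, was at 0.372 and 0.209 CPM in AML high, 36.4 and 1.42 CPM in normal high, and 0.1 to 119 CPM in the low libraries. Bub1, a kinase of the spindle checkpoint, did not exceed 0.993 CPM in any high library and reached 29.9 CPM in normal low 6, but was at 0.214 CPM in normal low 1 and 0.326 CPM in AML low 4. Bub1b, the checkpoint protein BubR1, was at 0.743 to 44.8 CPM in the high and 1.39 to 140 CPM in the low libraries.

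For cyclins, Cdk1 and its regulators the populations overlapped. Ccna2 and Ccnb1 were at 4.11 to 113 and 0.126 to 32.2 CPM in the high libraries, and Ccnb2 and Cdk1 at 2.93 to 62.0 and 0.732 to 47.5 CPM. In the low libraries these 4 genes lay at 3.64 to 275, 2.04 to 187, 8.51 to 269 and 2.36 to 182 CPM. Cdc20, the activator of the anaphase-promoting complex, was at 10.3 to 62.3 against 3.21 to 328 CPM. Mki67, which encodes the proliferation antigen Ki-67, was at 4.50 to 106 CPM in the high and 5.14 to 291 CPM in the low libraries, with AML high 1 at 106 CPM and normal high 1 at 95.3 CPM. Top2a was at 5.25 to 51.7 against 4.61 to 353 CPM.

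The spindle, centromere and cytokinesis genes completed the set. Birc5, or survivin, of the chromosomal passenger complex, was at 2.60 to 35.6 CPM in the high and 13.9 to 186 CPM in the low libraries. Kif11, the kinesin that separates spindle poles, was at 1.57 to 41.9 against 1.39 to 126 CPM, and Kif23, a kinesin of the midbody, at 0.619 to 67.3 against 1.07 to 89.5 CPM. Cenpe, a kinetochore motor, was at 0.284 to 6.05 against 0.284 to 86.6 CPM. Nusap1, which binds spindle microtubules, was at 1.56 to 44.3 against 7.90 to 99.7 CPM. Cenpf was at 28.9 and 28.1 CPM in AML high, 42.9 and 2.27 CPM in normal high and 1.5 to 77.1 CPM in the low libraries, and was the one gene whose fitted difference was as small as that of the median of all genes.

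**Figure D3:**
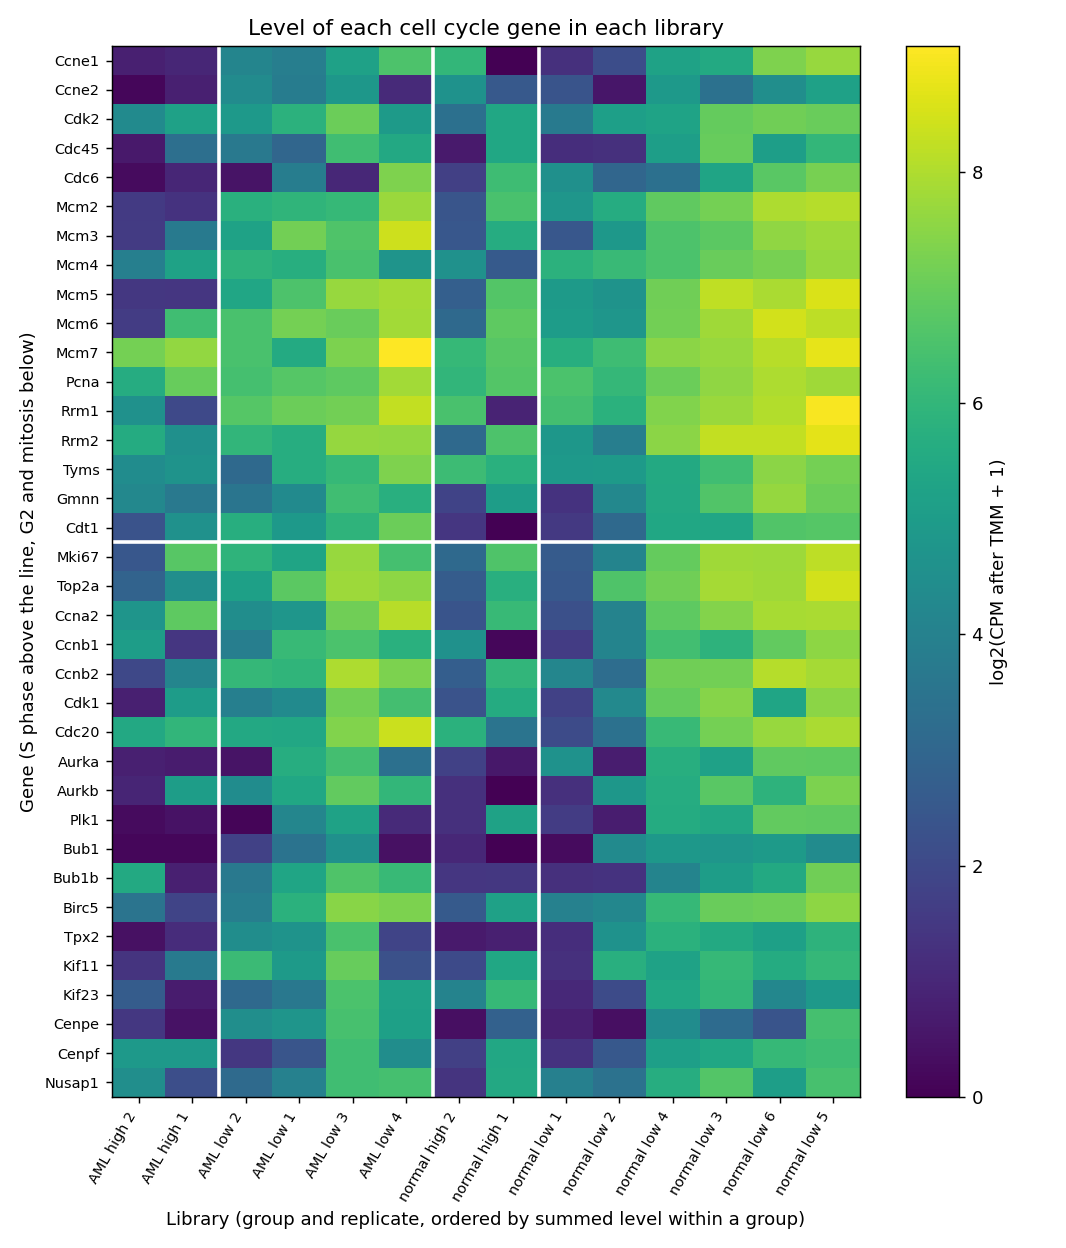
Level of each of the 36 genes in each library as log2(CPM after TMM + 1), with S phase genes above the horizontal line and G2 and mitosis genes below it, and libraries ordered by their summed level within each group. The columns darken and brighten as a whole, with normal low 5 and 6 brightest. In the normal high 1 column Ccne1, Cdt1, Aurkb and Bub1 are at 0 while Mcm2 is at 87.5 CPM.

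Within AML mice, 35 of the 36 genes had a log2 fold change below 0 between Nes-GFP high and low cells (53.2% of all tested genes did), with medians of -2.30 for S phase and -3.06 for G2 and mitosis against -0.10 over all tested genes. Both high libraries lay below all 4 low libraries for 16 genes (44.4%), beside 8.83% of all tested genes. These were Ccne1, Ccne2, Mcm2, Mcm3, Mcm5, Mcm6, Rrm1, Rrm2 and Cdt1 of the S phase set, and Top2a, Ccnb2, Bub1, Birc5, Tpx2, Kif23 and Cenpe of the other. By edgeR 0 genes of the set and 0 of all genes had an adjusted p under 0.05, and 14 genes were lower at an unadjusted p under 0.05, beside 6.48% of all tested genes. DESeq2 called 14 lower (6.45% of the genes it adjusted) and limma voom 0. The smallest p were those of Mcm2 with a log2 fold change of -5.86 (SE 1.48, adjusted p = 0.327), Mcm5 with -6.33 (SE 1.64, adjusted p = 0.336) and Tpx2 with -5.45 (SE 1.72, adjusted p = 0.479), all by edgeR's quasi-likelihood test. The count of 14 was 4 without AML high 2 and 9 without AML high 1, and the S phase median was -4.05 without AML high 1. With the blood marker covariates the count was 8, and 29 genes were below 0.

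Within normal mice, 35 of the 36 genes were again below 0 (58.4% of all tested genes were), with medians of -1.62 and -1.99 against -0.27 over all tested genes. Both high libraries lay below all 6 low ones for Mcm4, Cdt1 and Tpx2 (8.33%), beside 7.86% of all tested genes. At an unadjusted p under 0.05, 7 genes were lower (9.14% of all tested genes), and these were Mcm4, Cdt1, Aurka, Aurkb, Bub1, Bub1b and Tpx2. By edgeR 0 genes of the set or of the table passed the adjusted threshold, DESeq2 called 7 of the set lower (10.4% of the genes it adjusted) and limma voom 0. Mcm4 was at 4.92 and 23.3 CPM in the high libraries and from 56.3 through 109 to 206 CPM in the low ones, a log2 fold change of -3.05 (SE 0.876, adjusted p = 0.274 by edgeR). Tpx2 had a log2 fold change of -5.74 (SE 1.74, adjusted p = 0.297) and Aurkb one of -6.53 (SE 2.16, adjusted p = 0.332) in the same test. The 2 high libraries differed among themselves, since the medians were -4.69 and -4.66 without the library labelled normal high 1, and -0.89 and -1.28 without normal high 2. Without the former, 14 genes were lower at an unadjusted p under 0.05.

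The comparison of AML with normal mice asks whether leukemia changes the cell cycle transcripts of nestin-expressing cells. In Nes-GFP high cells 23 of the 36 genes had a log2 fold change below 0 in AML (45.0% of all tested genes did), with a median of -1.52 for S phase and -0.87 for G2 and mitosis genes against 0.08 over all tested genes. By edgeR 0 genes of the set or of the table passed the adjusted threshold. At an unadjusted p under 0.05, Mcm2, Mcm5, Ccne2 and Cdc6 were lower (4.54% of all tested genes were) and Aurkb was higher (7.62%). DESeq2 called Mcm2, Mcm5, Cdc6, Ccne2 and Plk1 lower (4.27% of the genes it adjusted) and none higher (6.24%), and limma voom called 0. The log2 fold change was -4.76 for Mcm2 (SE 1.44, adjusted p = 0.279), -4.91 for Mcm5 (SE 1.58, adjusted p = 0.289) and -5.05 for Ccne2 (SE 1.99, adjusted p = 0.361) by edgeR's quasi-likelihood test. Ccne2 was at 0.743 and 0.105 CPM in the AML and 4.79 and 23.8 CPM in the normal high libraries, so that the groups did not overlap.

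Both AML high libraries lay below both normal ones for 7 genes, Ccne2, Cdc6, Mcm2, Mcm5, Tyms, Plk1 and Kif23 (19.4% of the set, beside 11.5% of all tested genes), and above them for Mcm7 and Cdt1 (5.56%, beside 16.0%). The fitted differences moved with the library labelled normal high 1. Mcm2 was at 87.5 and Plk1 at 36.4 CPM in that library, against 4.25 and 1.42 CPM in normal high 2. Without the library labelled normal high 1, 12 of the 36 genes were below 0, and the medians were 0.57 for S phase and 1.24 for G2 and mitosis genes. With the blood marker sums as covariates they were 0.74 and 1.32, with 13 genes below 0. The erythroid marker sum was 47.0 and 10.8 CPM in AML high against 2950 and 134 CPM in normal high, and its part in the difference was not tested beyond that fit.

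In Nes-GFP low cells, where 4 AML libraries stood against 6 normal ones, 27 of the 36 genes were below 0 in AML (49.8% of all tested genes were). The medians of -0.32 and -0.11 were small beside the median standard errors of 0.922 and 1.09. No gene separated the groups, beside 0.667% of all tested genes with all AML libraries lower and 0.441% with all higher. By edgeR 0 genes of the set or of the table passed the adjusted threshold, 0 of the set had an unadjusted p under 0.05 (2.90% of all tested genes were lower and 2.64% higher at that mark), and DESeq2 and limma voom called 0. The gene with the smallest p was Mcm4, at 50.7, 58.2, 87.4 and 24.8 CPM in AML and from 56.3 through 109 to 206 CPM in normal mice, with a log2 fold change of -1.08 (SE 0.586, adjusted p = 0.9999 by edgeR). Plk1 had -1.99 (SE 1.53) and Gmnn -1.03 (SE 1.04), both with an adjusted p of 0.9999 in the same test. The signs depended on single libraries and on the covariates: 17 genes were below 0 without normal low 5, and 8 with the blood marker covariates, which gave medians of 0.97 and 0.93.

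With both populations weighted equally, 28 of the 36 genes were below 0 in AML (46.7% of all tested genes were), with medians of -0.69 and -0.47 against 0.07 over all tested genes. By edgeR 0 genes of the set or of the table passed the adjusted threshold, and Mcm2, Mcm5, Plk1 and Ccne2 were lower at an unadjusted p under 0.05 (5.15% of all tested genes). DESeq2 called Mcm2, Mcm5 and Plk1 lower (3.20% of the genes it adjusted) and limma voom 0. The log2 fold change was -2.65 for Mcm2 (SE 0.811, adjusted p = 0.262) and for Mcm5 (SE 0.879, adjusted p = 0.274), and -3.98 for Plk1 (SE 1.60, adjusted p = 0.339), all by edgeR's quasi-likelihood test. Cdt1 (2.24), Aurkb (2.21) and Bub1b (2.08) had the highest fold changes on the log2 scale, and none of these passed the test. Without the library labelled normal high 1 the medians were 0.13 and 0.57, with 13 genes below 0 and 2 lower at an unadjusted p under 0.05, and that count was also 2 without AML high 2. With the covariates the medians were 0.61 and 1.37. The test of whether the AML effect differed between the populations gave 21 of the 36 genes below 0 (46.5% of all tested genes) with medians of -1.27 and -0.40, and called 0 genes by edgeR, with Mcm2, Mcm5 and Ccne2 at an unadjusted p under 0.05 (3.55% of all tested genes were lower at that mark). For Mcm2 the difference was -4.22 (SE 1.56, adjusted p = 0.443), for Mcm5 -4.54 (SE 1.71, adjusted p = 0.446) and for Ccne2 -4.93 (SE 2.15, adjusted p = 0.477) by edgeR, and neither DESeq2 nor limma voom called a gene of the set. Without the library labelled normal high 1 these medians were 0.88 and 0.91, and without AML high 2 the count of 3 genes was 1. With the covariates 15 genes were below 0, and the medians were 0.16 and 0.34.

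**Figure D4:**
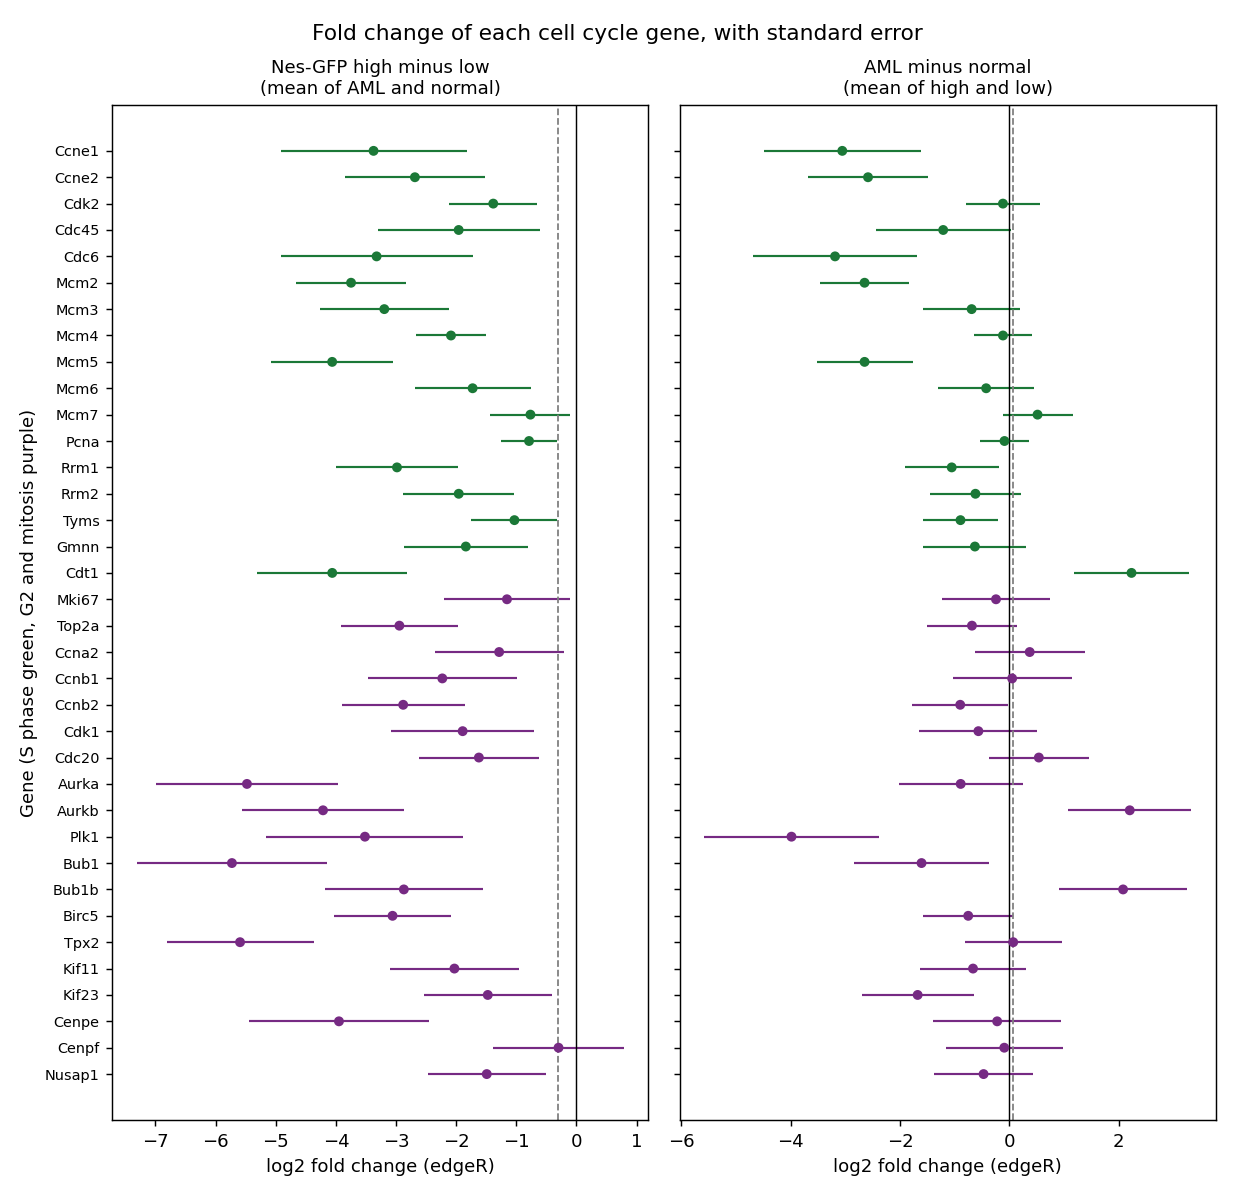
Log2 fold change of each gene with its standard error (bars) from edgeR, for Nes-GFP high minus low (left) and AML minus normal (right), with S phase genes in green and G2 and mitosis genes in purple. The dashed line is the median over all tested genes, at -0.31 and 0.07. All 36 points lie below 0 on the left, and 28 of 36 on the right.

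The genes around the cycle were counted in 7 further lists, beside 61.4% of all tested genes below 0 and 13.7% lower at an unadjusted p under 0.05 in this comparison. Of 34 other mitosis genes, 32 were below 0 in Nes-GFP high against low cells, with a median of -3.60, and 26 were lower at an unadjusted p under 0.05. Melk, a kinase of dividing cells, had a log2 fold change of -7.81 (SE 1.75, adjusted p = 0.102 by edgeR), and Hmmr, which binds spindle microtubules, one of -4.33 (SE 0.991, adjusted p = 0.102). Of 22 other replication genes, 21 were below 0 with a median of -2.98, and 11 were lower at that mark. Rfc3, a subunit of the clamp loader, had a log2 fold change of -3.17 (SE 0.689, adjusted p = 0.0997 by edgeR). Of 7 transcription factor genes (E2f1, E2f2, E2f3, E2f7, E2f8, Mybl2 and Foxm1), 6 were below 0 and 5 were lower at that mark. Mybl2, the Myb of the Myb-MuvB complex, had a log2 fold change of -5.45 (SE 1.25, adjusted p = 0.102 by edgeR). Of 14 checkpoint genes, 11 were below 0 and 4 lower at that mark.

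Repressors and early regulators were counted in the same way, against the same shares of 61.4% and 13.7%. Of 13 RB family and DREAM genes, 12 were below 0 and 6 lower at an unadjusted p under 0.05, with a median of -2.16 and Rb1 at -4.77 (SE 1.41, adjusted p = 0.176 by edgeR). The 6 CDK inhibitors, which hold cells in G1, were split, with 3 above and 3 below 0, a median of -0.08 and none at an unadjusted p under 0.05, and Cdkn2a was not analysed here. Of the 5 G1 cyclins and kinases, 4 were below 0 with a median of -0.85, and Cdk6, a partner of the D-type cyclins, was at -4.53 (SE 0.973, adjusted p = 0.0997 by edgeR). By edgeR no gene of these lists had an adjusted p under 0.05. DESeq2 called 24 of the other mitosis genes, 10 of the replication genes and 4 of the list with Mybl2 and Foxm1 lower. It also called 5 of the RB family and DREAM genes, 3 of the checkpoint genes, 1 of the G1 genes and 0 of the CDK inhibitors lower. Beside these counts, it called 11.0% of all genes it adjusted lower. The stromal markers were above 0 for 10 of 10 genes in this comparison (median 0.80) and the markers of all blood cells below 0 for 8 of 8 (median -2.17), with erythroid markers below 0 for 10 of 11 (median -2.27). Neutrophil and monocyte markers were below 0 for 12 of 12 genes (median -1.34) and blood progenitor markers for 6 of 7 (median -3.30). How far these cell types account for the fold changes of the cell cycle genes was not tested beyond the fit with covariates. That fit held the neutrophil and monocyte and the erythroid sums, and no blood progenitor sum.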

How the data were processed

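RNA of 14 libraries of sorted Nes-GFP+ BMSCs was amplified by Smart-seq2, without molecular identifiers, and sequenced. The deposited table holds raw counts per gene, which the authors made with Trim Galore 0.4.1, TopHat2 2.1.0 against mm10 and featureCounts. Whether reads were counted by strand is not given in the sources used here. The table's 2 further library columns match no sample and were not used.

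The counts, 5615941 to 11436652 per library, were scaled by TMM and tested with edgeR 4.0.16 (R 4.3.3), with the filterByExpr filter (minimum count 10), a quasi-likelihood fit over all 14 libraries in 4 groups and Benjamini-Hochberg adjustment over 18152 genes. There were 7 comparisons. The scripts were tested on simulated data with 50 changed genes of each size. Of 4-, 16-, 64- and 256-fold changes, edgeR recovered 0%, 0%, 2% and 20% for AML against normal high cells. It recovered 0%, 28%, 64% and 58% for AML against normal low cells. For high against low over both statuses the shares were 4%, 32%, 54% and 74%. Most 4- and 16-fold changes were thus missed, so 0 genes called does not show that no gene differed. DESeq2 1.42.0 and limma 3.58.1 (voom) were alternatives, as were other filters and scaling, a replicate block, leaving out each library, and blood marker covariates. Members, lists and tests were chosen with earlier results of these data known. All 36 genes are given by level, and fold changes with adjusted p for the 3 members with the smallest p in each comparison. For each pathway list up to 2 genes with the smallest p are named. Genes named for not overlapping, or for the highest or lowest fold change, were chosen after their values were seen. Promoter windows for 30 of the 36 members and for 27025 genes came from RefSeq (GRCm38.p6), and gene positions and exon lengths from GENCODE M21 (GRCm38). Values of low counts are limited by counting error, and 3 reads correspond to 0.275 to 0.487 CPM. Python 3.11.15, numpy 2.4.6, pandas 2.3.3 and matplotlib 3.10.9 were used for tables and plots.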

Additional observations from a re-analysis of the deposited data

Results flagged for a closer look

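Of 78 groups of values checked, 7 held 1 library far from the rest. The rule flags about 1 in 20 groups by chance for independent, normally distributed values. These genes vary together, so no excess over chance is read from the 7. Among the AML low libraries, AML low 4 stood far above the others for Cdc6, at 158 CPM with the next at 13.4 CPM, and for Mcm2, at 211 CPM with the next at 67.9 CPM. AML low 3 stood apart by its ratio of G2 and mitosis to S phase sums, 1.37 with the next at 0.675. Among the normal low libraries, normal low 5 stood above the others for Bub1b, at 139.7 CPM with the next at 44.9 CPM, and for Cenpe, at 84.0 CPM with the next at 20.6 CPM. Normal low 1 stood below the others for Bub1, at 0.214 CPM with the next at 19.3 CPM, and for the ratio of the sums, at 0.218 with the next at 0.6253.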

How the results depend on the processing

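Other scalings, other filters, DESeq2, limma voom, a fit of only the groups compared, a replicate block, leaving out each library and, added after seeing the data, blood marker covariates were tried. The order of comparisons is AML against normal in high, in low, high against low in normal, in AML, AML against normal over both populations, high against low over both statuses, and the difference of the AML effect. Beside 0 genes by edgeR, DESeq2 called 1593, 118, 1737, 1090, 1150, 1982 and 768 genes, and 5, 0, 7, 14, 3, 17 and 0 of the 36 members. The filter of at least 10 CPM gave 1 gene in the first and 1 in the fifth comparison, limma voom 1 in the fourth, and the covariates 2, 1 and 4 in the first, the fifth and the sixth. Leaving out 1 library gave 0 to 194, 0 to 0, 0 to 189, 0 to 1, 0 to 166, 0 to 193 and 0 to 144 genes, and 0 to 1 members in the sixth. Without a library the S phase medians ran from -1.67 to 0.57, -0.74 to -0.04, -4.69 to -0.89, -4.05 to -1.76, -1.07 to 0.13, -3.45 to -1.86 and -1.64 to 0.88. The G2 and mitosis medians ran from -1.07 to 1.24, -0.66 to 0.17, -4.66 to -1.28, -4.41 to -2.34, -0.84 to 0.57, -3.57 to -2.31 and -1.03 to 0.91. With the covariates the S phase medians of the first, the second and the fifth were 0.74, 0.97 and 0.61, and the G2 and mitosis medians of the first and the fifth were 1.32 and 1.37. Whether equal replicate numbers mark libraries of the same mice is not given in the sources used here. Deviations of libraries with equal numbers had correlations from -0.16 to 0.372, and 4 of 12 libraries were closest to their own number. With 2 libraries in each high group the deviations mirror each other, so this check cannot decide it. With the replicate block 0 genes were called, and 23, 8, 17, 29, 19, 26 and 27 of the 36 members were below 0, against 23, 27, 35, 35, 28, 36 and 21 without it. At an unadjusted p under 0.05 the block gave 3, 0, 2, 6, 3, 5 and 4 members lower and 1, 3, 1, 1, 3, 1 and 0 higher. The high against low medians in normal mice were 0.083 and 0.015, and the G2 and mitosis median over both statuses was -0.99. In AML against normal low cells, Gmnn was 0.24 with the block and 0.74 with the covariates, and Plk1 0.50 with the covariates. The other 477 values of named members kept their sign and side of the threshold, and 15 passed it under DESeq2. Summed levels moved by less than the spread between libraries under the scalings tried. In the block fit normal low 5 and 6, each alone with its number, carried no weight in the differences between groups. These 2 libraries held the highest sums of the 36 genes. Apart from that property of the fit, the cause of these changes was not tested. With 2 libraries in each high group, 1 library decides many values, and the counts near 0 limit Bub1, Plk1 and Cenpe.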
